A study of Homo sapiens with 14 samples.

Results

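The cytosolic ribosomal protein mRNAs were followed over total and polysomal RNA of MDA-MB-231 cells, a human triple-negative breast cancer line, with and without silencing of the translation factor DAP5 (gene EIF4G2). Members were the gene symbols made of RPL or RPS and a number, with or without a closing A, X or L and a digit, together with RPLP0, RPLP1, RPLP2 and RPSA. Pseudogene symbols and the symbols of RPS4Y were left out. This gave 84 of 58434 symbols, of which 32 encode proteins of the small (40S) subunit and 52 proteins of the large (60S) subunit. The 60S and 40S genes include 7 paralogs that can stand beside or replace a standard subunit, namely RPL3L, RPL7L1, RPL10L, RPL22L1, RPL26L1, RPL39L and RPS27L.

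The cells carried lentiviral, doxycycline-inducible hairpins, either a non-silencing control (shNSi) or one against DAP5 (shDAP5), and lines were sorted for the red fluorescent reporter of the vector. All groups, control included, received 1 µg/ml doxycycline for 6 days. For each hairpin, 2 cultures were sampled as total mRNA, light polysomes (mRNAs with few ribosomes) and heavy polysomes (mRNAs with many). A moderate pool was sequenced for shNSi alone, which makes 14 libraries. The replicates are described as independent repeats of the complete experiment, and p-values measure only the spread between those 2. The shDAP5 light libraries bear the title light but a code that the shNSi cultures use for the moderate pool, and the shDAP5 total libraries are titled total polysome. Groups follow the titles, except that the shDAP5 total libraries were taken as total mRNA. Comparisons of the lines in heavy and light polysomes are also given with the shNSi moderate pool as the control.

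Ribosomal proteins and ribosomal RNA together form the ribosome, and cells make the proteins in matched amounts. Most vertebrate ribosomal protein mRNAs begin with a C and a run of pyrimidines, the 5′ terminal oligopyrimidine (TOP) motif, through which the mTOR pathway and LARP1 move them on and off polysomes as a group. Many are short, and a short coding sequence holds few ribosomes even when it is well translated.

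Total counts per library ran from 25899838 to 30795910, and replicate libraries correlated at r of 0.965 to 0.987 over 16235 genes, which are not independent. EIF4G2 was at 1392 and 1359 CPM (library-scaled counts, with TMM factors) in total mRNA of shNSi and at 526 and 730 in shDAP5, a log2 change of -1.11 ± 0.18 (SE, edgeR adjusted p = 0.0172). Its heavy polysome level was 1495 and 1394 CPM against 709 and 697, which did not pass the test (log2 change -0.86 ± 0.38, edgeR adjusted p = 0.0691). The mesenchymal markers VIM, CD44, CAV1, AXL and MSN were at 105 CPM or more in every library. ESR1, PGR, CDH1 and KRT20 stayed at 0.606 CPM or less, whereas GATA3, listed as near 0, was at 9.11 to 16.9 CPM.

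The start of the mRNA is shown first, since it is the feature by which these mRNAs are known as a group. In the RefSeq table of gene starts (GRCh38.p14), 67 of the 84 members had an entry. A start was counted as TOP-like where its first base was a C with at least 4 pyrimidines (C or T) directly after it, read on the sense strand. This held for 47 of the 67 members (70.1%) and for 5.14% of all 27305 genes in the table. In the windows below, 10 bases precede the listed start and 20 follow from it, and capitals mark the pyrimidine run of members that have one. The first 6 are core subunits with the run, and the last 3 (RPL3, RPS4X and RPL7L1) are members without it.
RPL41 (chr12:56116623-56116652, + strand): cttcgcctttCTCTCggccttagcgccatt
RPL38 (chr17:74203668-74203697, + strand): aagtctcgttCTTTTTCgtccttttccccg
RPS19 (chr19:41860245-41860274, + strand): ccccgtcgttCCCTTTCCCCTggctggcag
RPS6 (chr9:19380217-19380246, - strand): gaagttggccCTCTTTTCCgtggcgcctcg
RPLP0 (chr12:120201092-120201121, - strand): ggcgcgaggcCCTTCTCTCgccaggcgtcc
RPSA (chr3:39406710-39406739, + strand): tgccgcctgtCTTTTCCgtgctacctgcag
RPL3 (chr22:39319604-39319633, - strand): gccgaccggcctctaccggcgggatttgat
RPS4X (chrX:72277229-72277258, - strand): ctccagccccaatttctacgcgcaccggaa
RPL7L1 (chr6:42879606-42879635, + strand): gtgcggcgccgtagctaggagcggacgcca
A listed start is 1 annotated position, and a run that is absent there may lie at another start. The median run of the 47 was 8 bases and the longest 19. The paralogs RPS27L, RPL26L1 and RPL10L also lacked the run at their listed starts, whereas RPL22L1 and the little-read RPL36A had it.

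Members took up a large and fraction-dependent part of the libraries. They held 7.77% and 8.55% of the counts in shNSi total mRNA, 12.20% and 12.05% in light polysomes, 9.63% and 8.68% in the moderate pool, and only 3.72% and 3.56% in heavy polysomes. In shDAP5 they held 9.84% and 8.76% of total, 13.2% and 12.3% of light and 7.18% and 10.1% of heavy polysome counts. The heavy share thus averaged 3.64% ± 0.119 (SD, n = 2) in shNSi and 8.66% ± 2.10 (SD, n = 2) in shDAP5, a ratio of 2.38. The groups do not overlap, and the exact two-sided permutation test over cultures gave p = 0.33, the smallest that 2 against 2 allows. The 40S genes went from 1.19% to 3.15% of heavy counts and the 60S genes from 2.45% to 5.51%. The shNSi moderate share, 9.16% ± 0.674 (SD, n = 2), lay within the range of the shDAP5 heavy cultures.

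**Figure D1:**
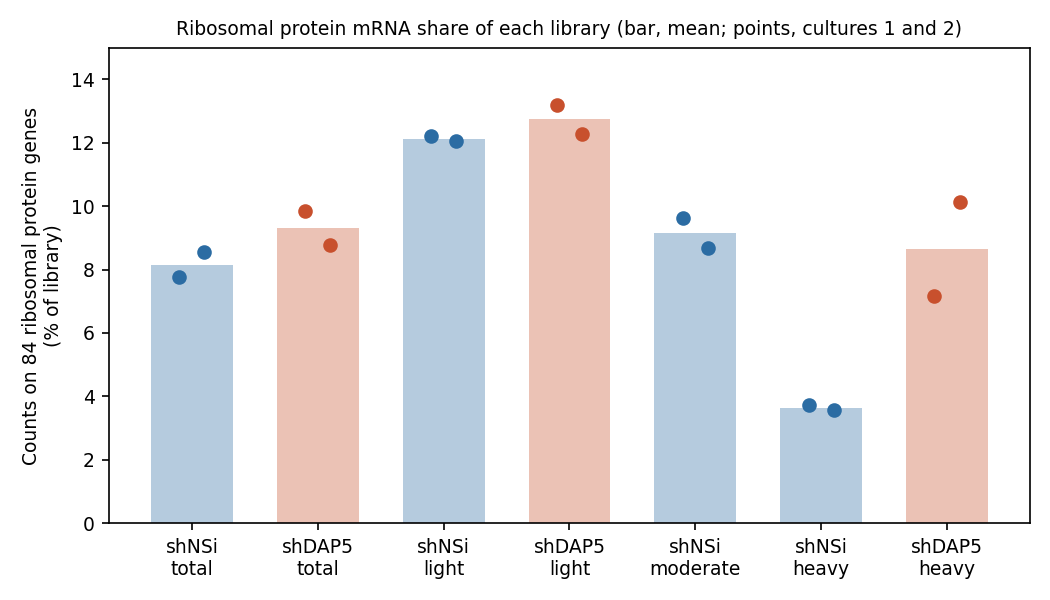
Share of each library's counts on the 84 ribosomal protein genes (%), by hairpin and fraction; bars are means and points the 2 cultures. The shNSi heavy libraries, at 3.72% and 3.56%, lie below all others, and shDAP5 heavy cultures differ from each other by more than any other pair.

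Of the 84 members, 82 passed the filter on low counts in every comparison. RPL3L and RPL10L, paralogs known from muscle and testis, had 0 to 3 and 0 to 1 counts in every library. A further 3 were low for core subunits in shNSi total mRNA, where RPL36A had 5.05 and 9.50 CPM, RPL17 32.3 and 36.6 CPM and RPS10 42.4 and 48.8 CPM. Each shares its locus with an annotated read-through symbol, so reads that fit both could have been left uncounted, which was not tested. Per kilobase of coding sequence, which ignores the untranslated ends, RPL41 had the highest shNSi total level (13108 CPM per kb over 78 nt), followed by RPS18 (4613) and RPS24 (4246). RPL4, the member with the longest coding sequence (1284 nt), had 1105 CPM per kb. The expressed paralogs RPL7L1, RPS27L, RPL22L1, RPL39L and RPL26L1 had between 147 and 674 CPM per kb, ranking 74th to 79th, below all core subunits other than RPS10, RPL17 and RPL36A except RPS15A, which lay between them at 620. Counts on the 1128 ribosomal protein pseudogene symbols came to 0.368% to 0.478% of the members' counts, and the setting used for reads that fit a gene and its copies was not given in the sources used here.

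In the control cells the members separated along the gradient by the length of their coding sequence. Between heavy and light polysomes of shNSi, 65 of 82 members were lower and 4 higher (edgeR quasi-likelihood test, adjusted p under 0.05), with a member median of -1.86 on the log2 scale against -0.03 over all 16235 genes. Of all genes 30.5% were lower and 34.7% higher in this comparison. An offset for coding length, fitted over all genes in each library with members included, left 36 lower and 10 higher (median -0.46; all genes 27.8% and 30.0%). All 11 members with under 300 nt of coding sequence were lower (median -2.42), as were 46 of 48 with 300 to under 600 nt (median -2.05), but only 8 of the 23 tested with 600 nt or more (median -0.44). Over the 82 members, which share libraries, Spearman's correlation between coding length and this log2 ratio was 0.82. Other genes moved with length too, with a correlation of 0.64 over 12655 genes, with 91.9%, 84.4% and 17.4% lower in the same 3 classes, and with medians of -2.07 under 300 nt, -1.51 at 300 to under 600 nt and 0.55 at 600 nt or more.

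RPS29, a short zinc-binding protein of the 40S head (171 nt), marked the low end. It was at 986 and 506 CPM in shNSi light polysomes, 150 and 205 in the moderate pool and 79.7 and 102 in heavy polysomes, and the 3 pools do not overlap. Its heavy over light log2 ratio was -3.05 ± 0.37 (SE, edgeR adjusted p = 7.41e-07). RPS21 (-2.75) and RPS28 (-2.61), both small 40S proteins, came next.

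The 4 members that were higher in heavy polysomes were RPL4, RPL3, RPL5 and RPL15, all of the 60S subunit. RPL4, a core protein that lines the peptide exit tunnel, had 629 and 1059 CPM in light, 1157 and 2574 in moderate and 2655 and 2366 in heavy polysomes of shNSi, a heavy over light log2 ratio of 1.64 ± 0.37 (SE, edgeR adjusted p = 0.000592). RPL3, next to the peptidyl transferase centre, had 647 and 1284 CPM in light and 2293 and 2418 in heavy polysomes (1.38). RPL5, which binds 5S rRNA together with RPL11, had 827 and 1453 CPM in light and 2471 and 2704 in heavy polysomes (1.25). For each of the 3, both heavy cultures were above both light cultures, while the 2 moderate cultures lay far apart. RPL11, the partner of RPL5 in the 5S particle but with 537 nt against 894 nt, went the other way, from 1629 and 1903 CPM in light to 484 and 602 in heavy polysomes (-1.70). RPL15, with a shorter coding sequence (615 nt), had a heavy over light log2 ratio of 0.77 ± 0.33 (SE, edgeR adjusted p = 0.0453).

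**Figure D2:**
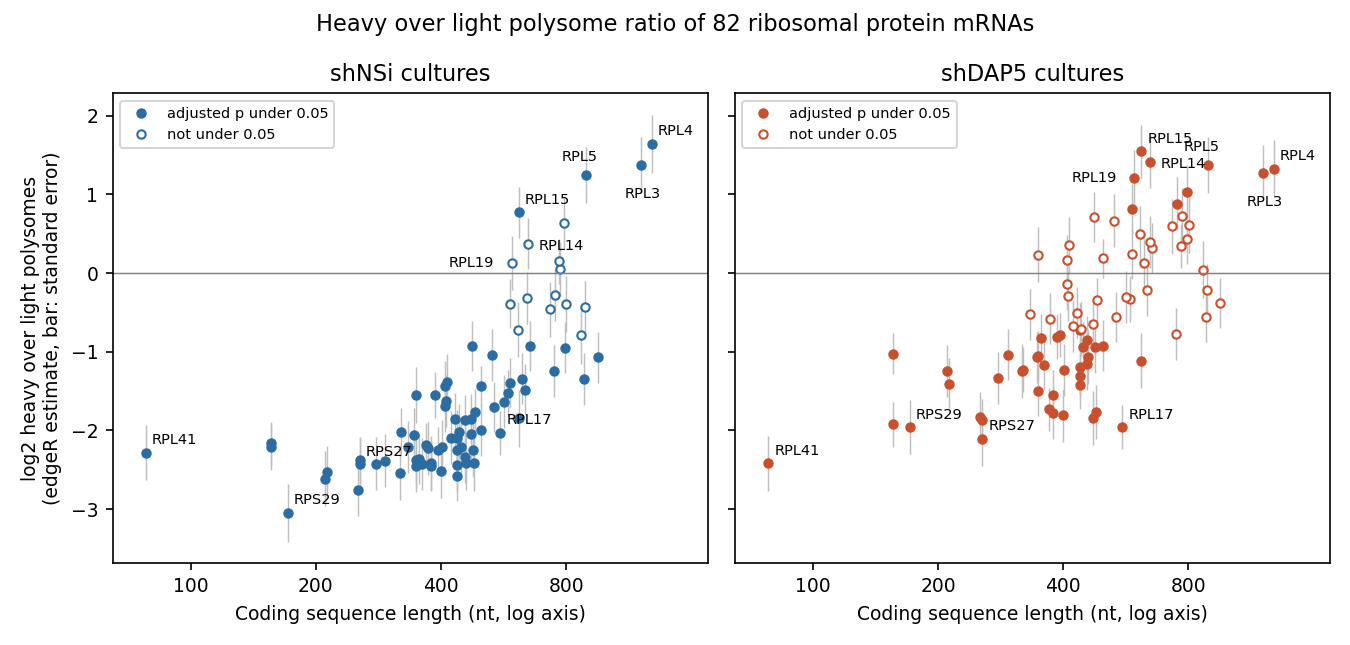
Heavy over light log2 ratio of the 82 tested members against coding sequence length (nt, log axis) in shNSi and shDAP5 cultures; bars are standard errors and filled points have an adjusted p under 0.05. The ratio rises with length in both lines (Spearman's correlation 0.82 and 0.72), from RPS29 at -3.05 to RPL4 at 1.64 in shNSi, and the shDAP5 points lie higher for most members.

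The moderate pool lay between the others for most members. Against light polysomes, 34 members were lower and 6 higher (all genes 16.3% and 16.0%), with a median of -0.62 against 0.01 over all genes. With the coding length offset the direction turned, to 7 lower and 15 higher (median 0.17; all genes 13.1% and 16.4%), and without shNSi replicate 1 the calls fell to 24 lower and 1 higher (1501 and 1553 of 16675 genes) and without shNSi replicate 2 to 22 lower and 2 higher (all genes 8.16% and 8.51%). RPL41 (-2.14), the smallest member, RPS29 (-2.08) and RPS27 (-1.96) were lowest. The 6 that were higher were RPL5 (1.36), RPL15 (1.14), RPL4 (1.11), RPL3 (1.10), RPS4X (1.08) and RPL14 (0.96), each with 600 nt or more. Heavy against moderate polysomes, 63 members were lower and 0 higher (all genes 13.1% lower and 24.1% higher), with a median of -1.13. The calls fell to 25, all lower, with the coding length offset (all genes 15.7% lower) and to 23, all lower, without shNSi replicate 1 (4.14%). Length ordered the members far less there (Spearman's correlation 0.11), although it ordered the other genes (0.73). RPS10 (-1.59), RPS7 (-1.54) and RPL21 (-1.54) were lowest, and RPL5 (-0.12), RPL3 (0.28) and RPL4 (0.53) did not pass the test. Taking the 81 members with a mean of at least 10 CPM, 50 were highest in light polysomes of both shNSi cultures, 18 highest in the moderate pool of both, and 0 highest in heavy polysomes of both.

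In shDAP5 cells the members were again ordered by length, around a higher centre. Spearman's correlation between coding length and the heavy over light ratio was 0.72 over members, against 0.82 in shNSi. Over 12655 other genes it was 0.29, against 0.64 in shNSi. These differences were not tested. Between heavy and light polysomes 38 members were lower and 9 higher (all genes 22.6% and 24.6%), with a median of -0.69. With the coding length offset the direction turned, to 14 lower and 23 higher (median 0.08; all genes 21.8% and 26.5%). RPL41 (-2.42), RPS27 (-2.11) and RPS29 (-1.95) were lowest. The 9 higher members were RPL15 (1.55), RPL14 (1.41), RPL5 (1.37), RPL4 (1.33), RPL3 (1.28), RPL19 (1.21), RPS4X (1.03), RPS6 (0.88) and RPS9 (0.82). RPS6, the 40S protein phosphorylated by S6 kinase, had 1281 and 941 CPM in light and 1627 and 2472 in heavy polysomes of shDAP5, whereas in shNSi it had 1174 and 1820 in light and 1178 and 1242 in heavy polysomes. The 2 shDAP5 cultures differed: the member median of the heavy over light log2 ratio was -1.10 in culture 1 and -0.25 in culture 2, against -1.94 and -1.75 in shNSi. Without culture 1 the calls fell to 10 lower and 6 higher (all genes 9.54% and 10.2%), and without culture 2 to 30 lower and 0 higher (9.02% and 10.4%).

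In total mRNA no member passed the test between shDAP5 and shNSi. The median log2 change was 0.14 (-0.11 to 0.46), against 0.01 over all 14992 genes, of which 0.267% were lower and 0.0867% higher. At an unadjusted p under 0.05 edgeR gave 2 members (1799 of all genes), and DESeq2 called 0 at the adjusted threshold (all genes 1.31% lower and 0.514% higher). Among members with a mean of at least 10 CPM, RPL12 (1209 and 1312 CPM against 1718 and 1596, log2 change 0.42), RPS3A (0.39) and RPS24 (0.35) had the highest values, and RPS7 (-0.11), RPL26L1 (-0.07) and RPL17 (-0.06) the lowest. Both shDAP5 cultures were above both shNSi cultures for 26 of 81 members and below for 1, the paralog RPL26L1, while 19.5% and 23.1% of all genes were so placed.

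In heavy polysomes of shDAP5 against those of shNSi, 68 of 82 members were higher and 0 lower (all genes 14.2% higher and 16.7% lower), and the median log2 change was 1.29 (-0.20 to 1.76) against 0.09 over all 14270 genes. Both shDAP5 cultures lay above both shNSi cultures for 75 of 81 members, against 28.6% of all genes. The 40S genes had 30 of 32 called (median 1.39) and the 60S genes 38 of 50 (median 1.26). In bulk RNA such as this, more copies per cell in a pool and less of the other mRNAs in that pool cannot be told apart.

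The calls in heavy polysomes changed with the control pool and with 1 culture, for the members and for all genes. With the shNSi moderate pool in place of the heavy pool, 0 members were called and the median was -0.03, with 36 of 82 values above 0 (all genes 0.179% higher and 0.165% lower). With the heavy and moderate pools of each shNSi culture summed, 0 were called and the median was 0.39, with 79 of 82 values above 0 (all genes 0.553% higher and 2.22% lower). Without shDAP5 heavy replicate 2, 0 were called although the median stayed at 0.92, and of all genes 1 was higher and 1 lower (0.00672% each). Without shNSi heavy replicate 2, 44 were (all genes 5.66% higher). The coding length offset left 1 member called and a median of 0.42 (all genes 4.81% higher). The member values that follow are from the comparison of the heavy pools with all cultures.

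RPL34 (187 and 219 CPM in shNSi, 452 and 757 in shDAP5) had the highest log2 change, 1.76 ± 0.37 (SE, edgeR adjusted p = 9.13e-05). RPL12, part of the stalk base (406 and 466 against 972 and 1570 CPM), rose by 1.73, and RPL35, near the tunnel exit (409 and 526 against 965 and 1730 CPM), by 1.72. In all 3 the lower shDAP5 culture was above the higher shNSi culture, and culture 2 of shDAP5 was above culture 1. The acidic stalk proteins RPLP1 (1.22) and RPLP2 (1.60) rose and passed the test. RPLP0, to which they bind, had 1136 and 1257 CPM against 1400 and 2188. Its groups did not overlap, but its log2 change of 0.77 ± 0.38 (SE, edgeR adjusted p = 0.107) did not pass. RPLP0 has 954 nt of coding sequence against 345 and 348 nt, and no test was made between these genes.

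Of other members with known roles, RPS19, mutated in Diamond-Blackfan anaemia, went from 556 and 644 CPM to 979 and 1798 (1.40). RPL38, which affects translation of selected mRNAs (1.48), RPS25, used by many viral internal ribosome entry sites (1.20), and RPL11, an MDM2 inhibitor (1.25), also rose. RPL13A (1.14), RPS3 (0.99), RPS6 (0.95), RPL41 (0.91) and the ubiquitin fusion RPS27A (1.29) passed the test as well. RPSA, the laminin receptor precursor, had 698 and 643 CPM against 715 and 1066 (0.60 ± 0.37 SE, edgeR adjusted p = 0.216), and RPL10, which joins the 60S subunit late, a change of 0.86 ± 0.38 (SE, edgeR adjusted p = 0.0717).

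RPL4, RPL3 and RPL5 again stood apart. In heavy polysomes RPL4 had 2655 and 2366 CPM in shNSi and 1601 and 2245 in shDAP5, and was the 1 member of 81 with both shDAP5 cultures below both shNSi cultures, as 38.6% of all genes were (log2 change -0.20 ± 0.38, SE, edgeR adjusted p = 0.722). RPL3 had 2293 and 2418 CPM against 1627 and 2581 (0.03 ± 0.38), and RPL5 2471 and 2704 against 2106 and 2958 (0.16 ± 0.38), with overlapping groups. RPL7L1, RPL15, RPS4X, RPSA, RPL14, RPL8, RPLP0, RPL17, RPL23A, RPL19 and RPL10 were the other 11 that did not pass, with values from 0.33 to 0.86. All but RPL17, RPL23A and RPL19 of these 14 have 600 nt or more of coding sequence. By length, 11 of 11 members under 300 nt were higher (median 1.48), 45 of 48 at 300 to under 600 nt (median 1.41) and 12 of the 23 tested at 600 nt or more (median 0.95). Other genes again differed by length, with 60.4%, 51.4% and 8.13% higher and medians of 1.05, 0.91 and -0.12 in the same 3 classes. Members were above the other genes' median in each class, but length was not matched within a class. The longest member has 1284 nt, while the class of 600 nt or more has no upper limit for other genes. No test of the difference was made. Spearman's correlation with length was -0.56 over the members and -0.65 over 12051 other genes.

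**Figure D3:**
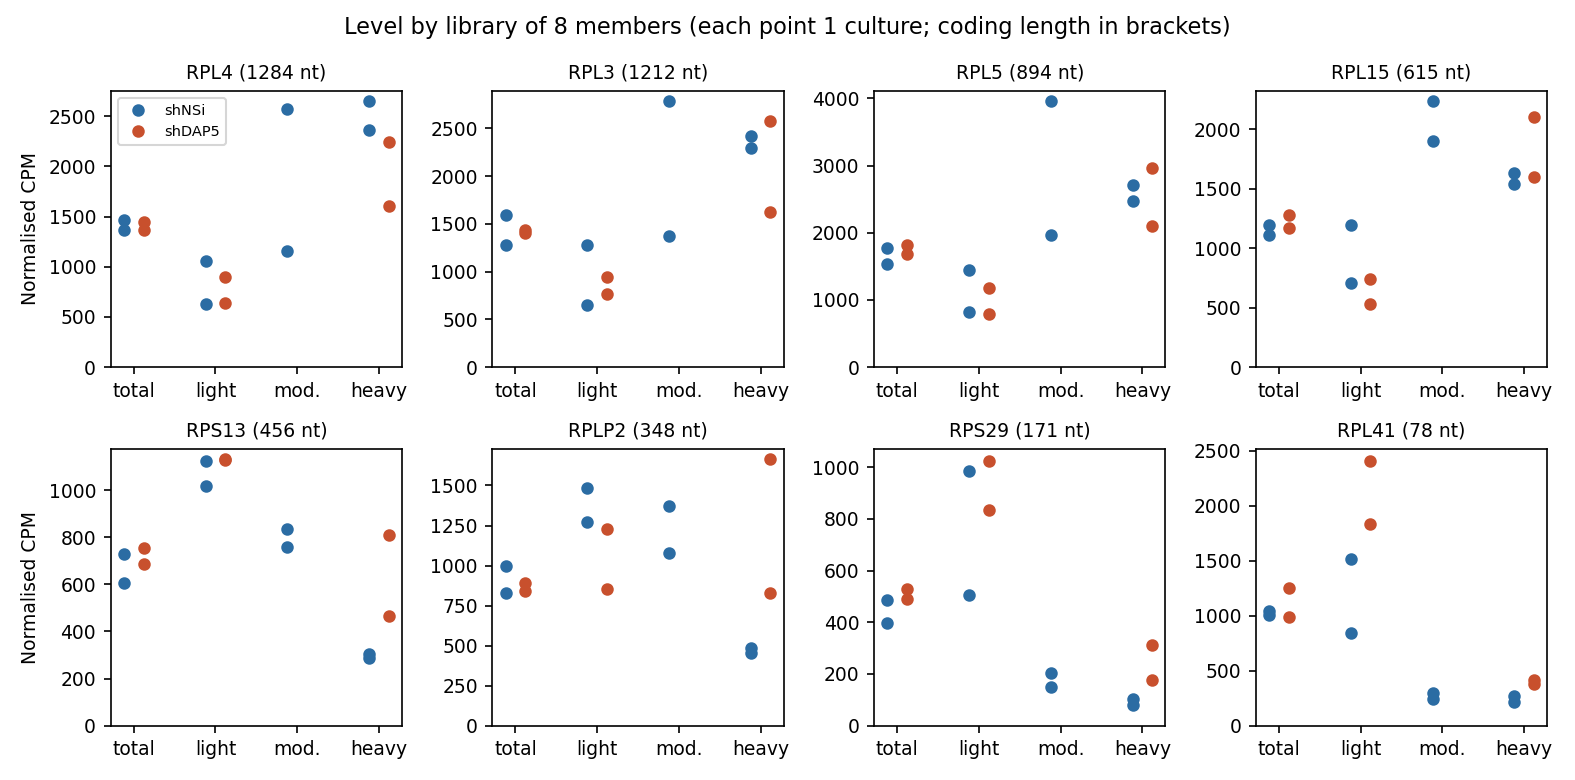
Normalised CPM of 8 members in every library, with total, light, moderate (shNSi only) and heavy fractions on the horizontal axis; each point is 1 culture. RPL4, RPL3 and RPL5 overlap or lie lower in shDAP5 heavy polysomes, while RPS13, RPLP2, RPS29 and RPL41 are higher in both shDAP5 heavy cultures than in either shNSi heavy culture.

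Heavy translation efficiency, the change in heavy polysomes relative to total mRNA, followed the heavy polysome values. It was higher for 47 members and lower for 0 (all genes 4.85% and 8.23%), with a median of 1.12 against 0.09. RPLP2 (1.54 ± 0.39 SE, edgeR adjusted p = 0.0114), RPS20 (1.50) and RPL35A (1.49) were highest, and RPL4 (-0.25 ± 0.39), RPL3 (-0.05 ± 0.40) and RPL5 (0.01 ± 0.40) lowest. The members' median log2 ratio of heavy over total was -1.08 and -1.17 in the shNSi cultures and -0.46 and 0.28 in the shDAP5 cultures. Calls over all genes and over members depended on the fit and on single cultures. No member was called without shNSi replicate 1 (all genes 0.126% higher), without shNSi replicate 2 (0.00626%) or without shDAP5 replicate 2 (0.0251%). With the moderate pool as control (median -0.23), with the summed pools (median 0.29), with library sizes in place of TMM scaling (median 1.34) and without the term for each culture (median 1.17), 0 members were called and 0% of all genes. The coding length offset also left 0 members (median 0.36; all genes 1.40% higher). Without shDAP5 replicate 1, 69 were called (all genes 13.0% higher).

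The difference between the lines in the heavy over light ratio, tested as an interaction, was called for 23 members, all higher in shDAP5 (all genes 4.70% higher and 12.4% lower), with a median of 1.13. RPLP2 led, with 1271 and 1481 CPM in light and 485 and 454 in heavy polysomes of shNSi but 1227 and 850 in light and 830 and 1667 in heavy polysomes of shDAP5 (interaction 1.79 ± 0.50, SE, edgeR adjusted p = 0.0187). RPL28 followed (1.74), and RPL4 (-0.32), RPL41 (-0.13) and RPL3 (-0.10) were lowest, none of these 3 passing the test. No member and 0% of all genes were called without shNSi replicate 2 or without shDAP5 replicate 2, and 15 members were without shDAP5 replicate 1 (all genes 3.54% higher). The coding length offset also left 0 (median 0.49; all genes 2.99% higher) and a fit with no culture term 2 (0.696%), whereas library sizes in place of TMM scaling gave 54 (all genes 10.8% higher) and DESeq2 53 (7.31%). With the shNSi moderate pool in place of the shNSi light pool, 24 members were higher and 5 lower (all genes 10.2% and 14.2%), and the median fell from 1.13 to 0.59, against -0.19 over all genes.

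In light polysomes no member passed the test, nor did any of 15529 genes (0% in either direction; with DESeq2 0 members, and 0.187% of all genes higher and 0.489% lower). The median was -0.05, and 0 members had an unadjusted edgeR p under 0.05 (all genes 8.56%). The members' values spread by length (Spearman's correlation -0.47), whereas over 12337 other genes the correlation was 0.13. RPL41, with 1517 and 845 CPM in shNSi and 1835 and 2404 in shDAP5, was highest (0.84 ± 0.38, SE, edgeR adjusted p = 0.586), followed, among members with at least 10 CPM, by RPL22L1 (0.54) and RPL17 (0.53). RPL14, with 663 and 1023 against 660 and 433 CPM, was lowest (-0.63), and RPL24 was also low (-0.59). Both groups were apart in one direction or the other for 28 of 81 members, 14 each way, against 20.6% and 21.6% of all genes. Light translation efficiency gave 0 calls as well (all genes 0%; 3 members and 5.22% of all genes at an unadjusted edgeR p under 0.05; 0 members and 0% of all genes with DESeq2), with RPL14 (-0.72) and RPL24 (-0.64) among the lowest and RPS12 (0.43), RPL17 (0.64) and RPL41 (0.77) the highest. Without shNSi light replicate 1, 17 members were called in light polysomes, 9 higher and 8 lower (all genes 12.6% and 16.3%). With the shNSi moderate pool as the control, 33 were, 29 higher and 4 lower (all genes 12.6% and 13.0%).

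**Figure D4:**
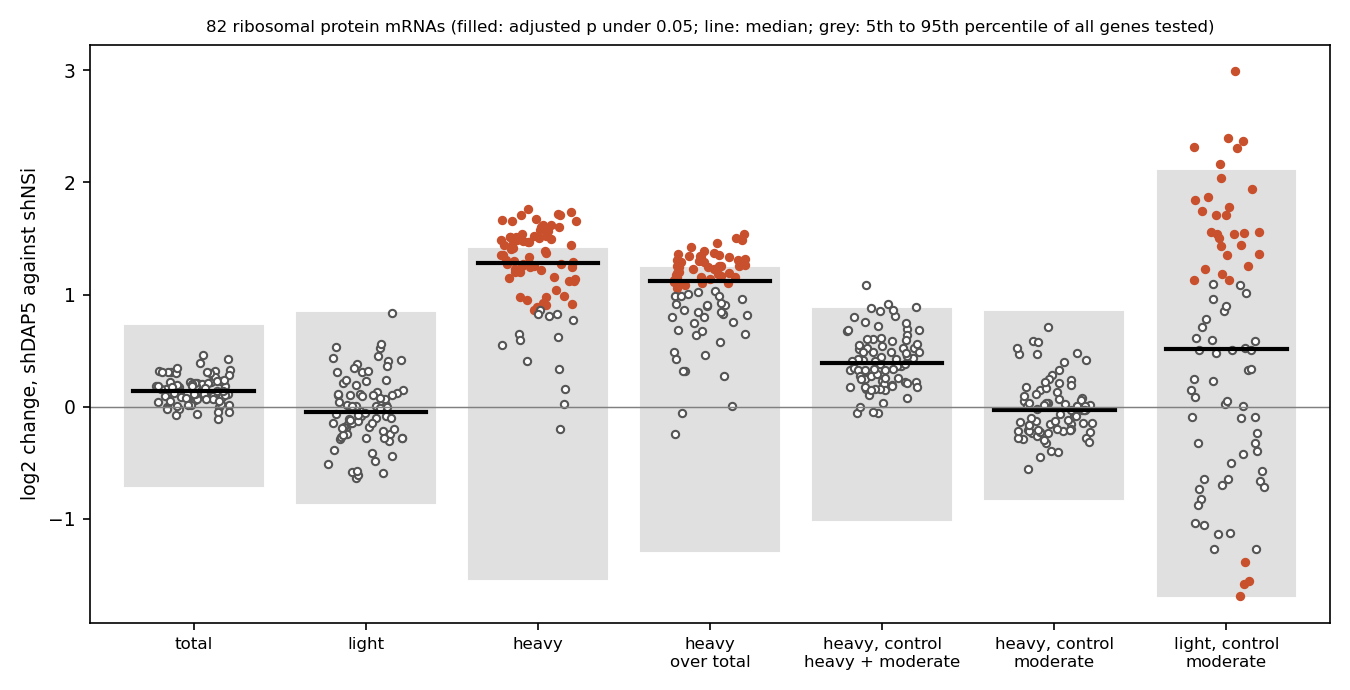
Log2 change of the 82 tested members, shDAP5 against shNSi, in total, light and heavy polysome mRNA and heavy over total, and with other shNSi control pools. Filled points have an adjusted p under 0.05, black lines are medians, and grey bands span the 5th to 95th percentile of all genes; the heavy median of 1.29 becomes 0.39 with summed and -0.03 with moderate control pools.

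Members differed in how closely they kept to the group. The distance of each from the median profile of the 81 members over the 14 libraries was taken as the root mean square difference of centred log2 CPM. RPL4 (1.14), RPL3 (1.07), RPL5 (1.07), RPL15 (1.00) and RPL14 (0.90) departed most. RPL4 lay 2.16 above the median profile in shNSi heavy culture 1, and RPL15 lay 1.78 below it in shDAP5 light culture 2. RPS13 (0.10), RPL23 (0.10), RPS23 (0.11), RPL11 (0.12) and RPS19 (0.13) kept closest, all with 423 to 537 nt of coding sequence. RPS13 had 604 and 726 CPM in total, 1122 and 1019 in light, 834 and 760 in moderate and 285 and 303 in heavy polysomes of shNSi. In shDAP5 it had 754 and 686 in total, 1132 and 1126 in light and 464 and 809 in heavy polysomes.

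Of the 5 paralogs tested, 4 rose in heavy polysomes (all genes 14.2% higher), and so did the standard subunit of each. These calls too were lost with the moderate or summed control pools and without shDAP5 heavy replicate 2. With the coding length offset, the changes of RPS27L, RPL7L1, RPL22, RPL39 and RPS27 turned negative. RPL26L1 went from 24.4 and 22.5 to 37.1 and 52.4 CPM in heavy polysomes (1.12) and RPL26 from 116 and 135 to 245 and 385 (1.51). RPL39L (1.47) rose beside RPL39 (0.93), RPL22L1 (1.12) beside RPL22 (0.89), and RPS27L (0.91) beside RPS27 (0.86, edgeR adjusted p = 0.0496). RPL7L1, known from 60S assembly in the nucleolus, had 541 and 567 CPM against 616 and 612 (0.33 ± 0.37, SE, edgeR adjusted p = 0.507), while RPL7 rose by 0.98. No test was made between partners, and reads of near-identical stretches could have been split between them.

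Members with and without a TOP-like start were set side by side as a description, as were other gene lists, beside the 14.2% of all genes higher and 16.7% lower in heavy polysomes. In heavy polysomes the 47 members with it had a median log2 change of 1.29 and the 19 tested without it 1.12, and in heavy over light of shNSi the medians were -2.02 and -1.53. Of ribosomal protein genes outside the symbol rule, FAU (1.39) and RPL36AL (1.30) were higher in heavy polysomes. Of 17 tested other TOP mRNAs, which encode translation factors and related proteins, 2 were higher and 1 lower (median 0.29), shares no larger than those of all genes. BTF3 (1.17) and NACA (1.14), subunits of the nascent polypeptide-associated complex, were the higher ones, and the elongation factor EEF2 (-1.55) was lower. Of the mitochondrial ribosomal protein genes, 47 of 78 were higher and 1 lower, with a median of 0.98. Among 11 genes that act on TOP mRNAs, EIF4EBP1 was higher (1.24) and LARP1 (-1.02), LARP4 (-1.26), MTOR (-1.67) and RPTOR (-0.99) were lower in heavy polysomes. These lists were not matched by coding length. EIF4EBP1 has 357 nt and the 4 lower genes 2175 to 7650 nt, while BTF3, NACA and EEF2 have 489, 648 and 2577 nt. Outside the members, 51.4% of genes at 300 to under 600 nt were higher, and 21.4% at 600 nt or more were lower. With the shNSi moderate pool as the control, EEF2 (1.12), MTOR (0.50) and LARP4 (0.047) were above 0, and BTF3, NACA and FAU below it.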

How the data were processed

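The authors deposited 1 table of read counts per gene symbol for 14 libraries, as whole numbers without normalization. The submitters' processing notes name STAR 2.6.0a, hg19 and limma. The name of the table refers to featureCounts. The version and settings of the counting, the annotation and the treatment of reads that fit several genes were not given in the sources used here. The total mRNA and the light, moderate and heavy polysome pools of MDA-MB-231 cells were sequenced as single reads, and which gradient fractions entered the moderate pool was not given either. Depth per library, at least 25899838 counts, was ample for most members, and 2 cultures per group limit the precision.

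Counts were tested in R 4.3.3 with edgeR 4.0.16 (TMM scaling, filterByExpr, robust quasi-likelihood test), and p-values were adjusted by Benjamini-Hochberg over all genes tested, with a threshold of 0.05. Fits used the 4 libraries of a fraction, 8 libraries with a term for each culture for translation efficiency (fraction by hairpin), and all 14 libraries with culture terms for ratios between fractions. The pools of 1 culture come from 1 gradient, and across genes the deviations from the group means correlated at 0.15 to 0.61 between pools and at 0.07 to 0.53 between a pool and the total mRNA of its culture. Levels are CPM with TMM factors over all 14 libraries. Coding lengths are from GENCODE v29 and 30-base start windows from RefSeq. Alternatives were DESeq2 1.42.0, limma 3.58.1 on quantile-normalized log2(CPM + 1), library size alone, no filter or at least 10 counts in every library, a coding length offset (loess, span 0.3), replicate blocks, other control pools, other sets of libraries and each culture left out. The crossed block and the moderate pool in the change of heavy over light were chosen after seeing the data. The tests were tried on simulated data.

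Members and gene lists were chosen with earlier results of these data known. Named were, among members with at least 10 CPM, the 3 lowest and 3 highest changes of each comparison, members called against the majority, the 5 most and 5 least like the median profile, a list by role, the paralogs with their partners, and members at under 10 CPM. Some results that this rule would name are not reported here.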

Additional observations from a re-analysis of the deposited data

Results flagged for a closer look

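The heavy over light polysome ratio differed between the lines, by the interaction test, for 23 members, all higher in shDAP5 (all genes 4.70% higher and 12.4% lower). No member was called with the coding length offset (all genes 2.99% higher and 3.12% lower), nor without shNSi replicate 2 or without shDAP5 replicate 2, where 0% of all genes were called as well. With the shNSi moderate pool in place of the light pool, 24 were higher and 5 lower (median 0.59). Among the members named by rule, it differed for RPLP2 (log2 difference 1.79, higher in shDAP5) and RPL28 (1.74). In neither did any shDAP5 culture fall below an shNSi culture in heavy polysomes. With groups of 2 cultures, no single library could be examined as standing apart from its group.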

How the results depend on the processing

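Of the 148 alternatives for the share of counts and for the members called per comparison, 112 were rated the same. For members called, this meant an equal total of calls, 0 included, or totals within 1.5 times of each other. A turned direction was counted only where both fits had calls. For the share, it meant that the difference between the lines moved by less than the larger group SD. With coding length offsets, heavy polysomes gave 1 call (median 0.42), heavy translation efficiency 0 (0.36), heavy against moderate 25, the change in heavy over light 0 (0.49), moderate against light 22 (15 higher, 7 lower, median turned to 0.17) and shDAP5 heavy against light 37 (23 higher, 14 lower, 0.08). With the shNSi moderate pool as control, heavy polysomes gave 0 calls, heavy translation efficiency 0, light polysomes 33 and light translation efficiency 33 (24 higher, 9 lower; all genes 13.8% each way); with summed pools they gave 0, 0, 0 and 3 (2 higher, 1 lower; all genes 0.679% and 2.18%). For the change in heavy over light, the moderate pool in place of light, chosen after seeing the data, gave 29 calls. In that change, library size gave 54 calls (all genes 10.8% higher), DESeq2 53 (7.31%), no filter 38 (3.69%) and no culture term 2 (0.696%). For heavy translation efficiency, library size and no culture term gave 0 calls among members and among all genes, and all 14 libraries in 1 fit gave 0 (all genes 0.616% higher and 5.88% lower). Library size in place of TMM moved the median of all genes by over 0.1 log2, to 0.34 in heavy polysomes, 0.30 in heavy translation efficiency, -0.60, -0.15 and -0.45 in the shNSi ratios (heavy over light, moderate over light, heavy over moderate), -0.23 in shDAP5 heavy over light and 0.30 in the change of that ratio. The causes were not tested.

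Leaving out 1 culture at a time, calls ranged from 0 to 60 in heavy polysomes (all genes 0.00672% to 7.64% higher), 0 to 69 in heavy translation efficiency (0.00626% to 13.0% higher), 0 to 17 in light polysomes (0% to 12.6% higher, 0.0125% to 16.3% lower), 0 to 18 in light translation efficiency (10 higher and 8 lower without shNSi replicate 1, as were 4.82% and 7.51% of all genes, and 0 without any other culture), 24 to 34 in moderate against light (8.16% to 13.1% lower), 23 to 62 in heavy against moderate (4.14% to 16.1% lower), 64 to 68 in shNSi heavy against light (22.8% to 28.3% lower), 16 to 48 in shDAP5 heavy against light (9.02% to 23.0% lower) and 0 to 16 in the change of that ratio (0% to 7.68% higher). Moderate against light had 25 calls without shNSi replicate 1 and 24 without shNSi replicate 2, and heavy against moderate 23 without shNSi replicate 1. Where this left an arm with 1 library, that library was assumed to vary like the others.

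The replicate numbers did not pair the cultures of the 2 lines, since the deviations of same-numbered libraries correlated at -0.15 to 0.05. With the replicate block, calls were 58 in heavy polysomes (all genes 15.6% higher) and 3 in heavy translation efficiency (1.10% higher), and 0 in total mRNA and both light comparisons. With the numbers crossed, chosen after seeing the data, they were 70 and 68 (11.9% and 11.4% higher), and 0 in the others.

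The values of named genes that turned sign under some setting were these. RPL3 in heavy polysomes went to -0.054 with DESeq2, -0.064 with no filter, -0.048 with the length offset, -0.016 with either block and -0.16 with all 14 libraries in 1 fit, and from -0.38 to 0.27 with 1 culture left out. Its heavy translation efficiency went to 0.16 with library size and with limma, 0.048 with the moderate pool, 0.093 with summed pools and from -0.44 to 0.32 with 1 culture left out. Its change in heavy over light went to 1.00 with the moderate pool in place of light, 0.23 with library size, 0.046 with no filter, 0.0081 with no culture term and from -0.60 to 0.45, and its heavy over moderate ratio to -0.12 with library size and from -0.29 to 0.61. RPL4 in heavy polysomes went to 0.027 with library size and 0.058 with the moderate pool, in heavy translation efficiency to 0.13 with the moderate pool, 0.021 with summed pools and from -0.57 to 0.066, in the change of heavy over light to 0.80 with the moderate pool in place of light, 0.017 with library size and from -0.81 to 0.25, and in heavy over moderate from -0.21 to 1.07. RPL5 in heavy polysomes went to -0.25 with the length offset, -0.032 with all 14 libraries, -0.21 with the moderate pool, -0.054 with summed pools and from -0.14 to 0.33. Its heavy translation efficiency went to -0.053 with DESeq2, -0.016 with no filter, -0.36 with the length offset, -0.11 with all 14 libraries, -0.27 with the moderate pool, -0.054 with summed pools and from -0.33 to 0.34, and its heavy over moderate ratio to 0.26 with the length offset and from -0.64 to 0.20. RPL41 in the change of heavy over light went to 0.20 with library size, 0.0055 with no filter and from -0.70 to 0.55, and with the length offset to 0.21 in shDAP5 heavy over light and 0.53 in moderate over light. RPL17 in total mRNA ran from -0.17 to 0.016 and RPS12 in light translation efficiency from -0.027 to 0.86 with 1 culture left out. RPL35A in heavy translation efficiency went to -0.12 with the moderate pool. In heavy polysomes, the other values that turned sign with the moderate pool as control were BTF3 (-0.29), FAU (-0.18), NACA (-0.027), RPL10 (-0.23), RPL11 (-0.22), RPL13A (-0.23), RPL22 (-0.20), RPL26L1 (-0.21), RPL7 (-0.56), RPL7L1 (-0.23), RPLP0 (-0.013), RPS25 (-0.028), RPS27A (-0.39), RPS27L (-0.028), RPS3 (-0.27), RPS6 (-0.17) and RPSA (-0.15), which had been above 0, and EEF2 (1.12), LARP4 (0.047) and MTOR (0.50), which had been below it. The others below 0 with the length offset were RPL22 (-0.077), RPL39 (-0.26), RPL41 (-0.34), RPL7L1 (-0.19), RPS27 (-0.24) and RPS27L (-0.18), and RPL7 was at -0.045 with summed pools.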
